A study of Mus musculus with 24 samples.

Results

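The genes described here were 10 markers of the vessel wall, 8 of endothelial cells (Cldn5, Pecam1, Cdh5, Flt1, Kdr, Tek, Ly6c1 and Mfsd2a) and 2 of pericytes (Pdgfrb and Rgs5). They were chosen by name and found by matching Ensembl gene identifiers of the count table to mouse symbols. All 10 were present among the 21965 genes of the table, and all 10 passed the filter on low counts that left 17167 genes for testing.

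Vessels of the spinal cord are lined by endothelial cells that are sealed to each other by tight and adherens junctions, carry few vesicles and transport nutrients through dedicated carriers, which together form the blood-spinal cord barrier. Pericytes lie on the outer face of these capillaries, are recruited through platelet-derived growth factor and help to maintain the barrier. Contusion tears vessels at the lesion site, opens the barrier and is followed by sprouting and remodelling of surviving vessels.

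The mice were OL-Ribotag animals, in which tamoxifen-induced Cre adds a hemagglutinin tag to the ribosomal protein RPL22 in oligodendrocytes (OLs). Female mice, 10 to 12 weeks old according to the labels, received a contusion at T9 with an IH impactor set to 50 kdyn, and a cord segment spanning the lesion was taken 2, 10 or 42 days post-injury (dpi). Uninjured mice of the same genotype, which also received tamoxifen, were the naive group. The study's methods give a younger age at injury than the labels do and say that naive and dpi 42 tissue was taken on 1 day at the same age, so that naive mice were not matched in age to dpi 2 and dpi 10 mice, and age and injury cannot be told apart at those times. At each of the 4 conditions tissue of 2 mice was combined into a pool, with 3 pools per condition. From every pool, total RNA of the cleared lysate and OL RNA, which anti-hemagglutinin antibody co-precipitated with tagged ribosomes, were sequenced separately, so that 24 libraries in 8 groups were compared. The driver of Cre is also active in Schwann cells, and the tag is not meant to be present in endothelial cells or pericytes.

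Library totals were 25.8e6 to 29.1e6 counts in total RNA and 29.1e6 to 33.0e6 in OL RNA. All 8 OL markers were enriched in OL RNA in every group. Both libraries of dpi 2 pool 2 held 2604 and 2414 counts on Y-linked genes, although the labels give female mice, and leaving this pool out is described beside the results that it changed. Naive pool 3 also differed from the other naive pools in markers of other cells. Levels are given as CPM, read counts scaled to library size with TMM factors. The summed level of 5 Schwann cell markers was 638 CPM in its OL library against 1.81 and 1.82 CPM in the other naive OL libraries, and 176 CPM in its total RNA against 2.79 and 2.00 CPM. The summed level of 6 astrocyte markers in OL RNA of this pool was 8448 CPM against 1455 and 1297 CPM. Injured pools resembled naive pool 3 in the Schwann cell markers, with 211 to 679 CPM in OL RNA at dpi 2, 864 to 1544 CPM at dpi 10 and 1208 to 1408 CPM at dpi 42. Their astrocyte sums in OL RNA reached 7676, 6259 and 12188 CPM at these times. Leaving out naive pool 3 therefore keeps the naive pools that were unlike injured pools in Schwann cell markers. For 2 libraries of dpi 42, the title and the description disagreed about the kind of RNA, and the description, which the column names follow, was used.

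Promoter sequence is shown for Cldn5, Flt1 and Kdr because these endothelial genes parted ways in the values below. Cldn5 had log2 changes above 0 after injury in both kinds of RNA. Flt1 and Kdr, receptors for the same growth factor, had log2 changes of opposite sign in OL RNA. In edgeR's quasi-likelihood test both passed there only at dpi 42 (adjusted p = 0.016 and 0.043). Neither passed at dpi 42 in a fit of OL libraries alone (adjusted p = 0.083 and 0.15). Each run holds 250 bases before and 50 bases after the gene start in the direction of transcription, from RefSeq on GRCm38.p6. Capitals mark the letters AGGAAG, a core bound by ETS factors, the transcription factor family common to endothelial genes.
Cldn5, chr16:18776597-18776896, plus strand: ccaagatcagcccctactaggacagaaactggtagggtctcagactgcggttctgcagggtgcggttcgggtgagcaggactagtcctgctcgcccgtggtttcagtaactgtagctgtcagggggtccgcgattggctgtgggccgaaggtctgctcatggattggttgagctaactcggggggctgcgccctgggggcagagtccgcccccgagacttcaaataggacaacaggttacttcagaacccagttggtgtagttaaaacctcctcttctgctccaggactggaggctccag
Flt1, chr5:147725962-147726261, minus strand: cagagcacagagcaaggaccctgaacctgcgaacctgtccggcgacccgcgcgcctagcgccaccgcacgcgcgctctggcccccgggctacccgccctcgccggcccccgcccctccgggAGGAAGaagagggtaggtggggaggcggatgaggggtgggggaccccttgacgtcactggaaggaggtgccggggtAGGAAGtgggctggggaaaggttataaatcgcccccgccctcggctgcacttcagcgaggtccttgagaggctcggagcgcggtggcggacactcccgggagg
Kdr, chr5:75978406-75978705, minus strand: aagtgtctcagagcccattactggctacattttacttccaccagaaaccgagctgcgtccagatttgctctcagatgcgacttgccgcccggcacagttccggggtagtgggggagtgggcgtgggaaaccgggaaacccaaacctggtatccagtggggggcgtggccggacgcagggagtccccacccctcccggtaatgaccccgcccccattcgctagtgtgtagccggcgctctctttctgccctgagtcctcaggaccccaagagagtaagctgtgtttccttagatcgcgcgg

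The search read AGGAAG on both strands and found it 2 times in the Flt1 window, 129 and 53 bases before the gene start, and not in the Cldn5 or Kdr window. Of all 32851 promoters of this length in the table, 35.4% held it. The letters ACAATG (a SOX core, in 12.6% of all promoters) were in none of the 7 marker promoters that the table held, and CTTTGA (a TCF/LEF core, in 16%) was in those of Mfsd2a and Rgs5. None of these 3 motifs overlaps another, a match describes letters only, and no match says only that these letters are absent from this window.

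In what follows, a gene is said to have risen or fallen only where the p-value of edgeR's quasi-likelihood test, adjusted over all genes tested, was under 0.05. Per kb of exon, the levels in naive total RNA were highest for Mfsd2a with 21.3 ± 1.42 CPM per kb (SD, n = 3), followed by Rgs5 with 15 ± 1.36, Cldn5 with 13.4 ± 1.42 and Ly6c1 with 11.7 ± 3.69. Flt1 came next with 3.62 ± 0.802 CPM per kb. Cdh5 (2.37 ± 0.396), Pecam1 (2.27 ± 0.0559), Pdgfrb (2.06 ± 0.351) and Tek (1.95 ± 0.401) lay within one another's spread, and Kdr was lowest at 1.28 ± 0.258 CPM per kb, although its range met that of Tek. Rgs5, Cldn5 and Ly6c1 also overlapped one another, so that only the steps from Mfsd2a to Rgs5, from Ly6c1 to Flt1 and from Flt1 to Cdh5 exceeded the ranges of the pools.

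**Figure D1:**
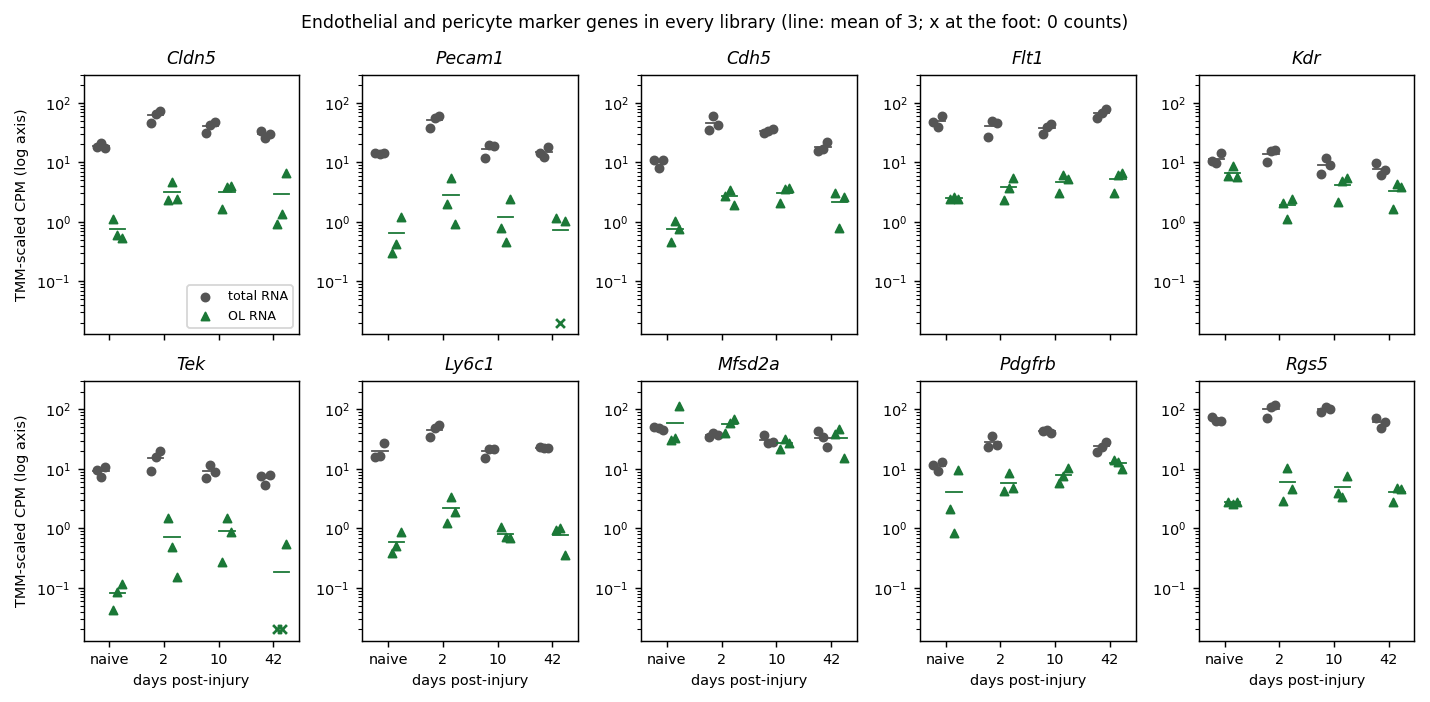
TMM-scaled CPM of each marker in each library on a log axis, against group (naive, dpi 2, 10 and 42), with 3 tissue pools per group, total RNA as circles, OL RNA as triangles and the mean as a line. Total RNA lay far above OL RNA for 7 markers, less so for Kdr and Pdgfrb, and Mfsd2a was at similar levels in both, and crosses at the foot mark libraries with 0 counts (Pecam1 in 1 and Tek in 2 of the dpi 42 OL libraries).

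In total RNA, the junction genes Cldn5, Cdh5 and Pecam1, the surface antigen Ly6c1 and the pericyte receptor Pdgfrb rose at dpi 2, by 2.32 to 4.63-fold, and none of the 10 markers fell. At dpi 2, 5 of the 10 had therefore risen, beside 16.4% of all genes tested that rose and 20.8% that fell. Their median log2 change was 0.96, against -0.10 over all genes. By dpi 10 only Cdh5 and Pdgfrb of these 10 were still called (2 risen, 0 fallen, beside 13.9% and 18.2% of all genes), and the median was 0.13 against -0.10. At dpi 42 no marker was called in either direction, beside 10.4% and 12.1% of all genes. An unadjusted p under 0.05, for which no share of all genes was counted here or below, was found for 2. DESeq2's Wald test called 1, beside 2154 genes higher and 2035 lower, in place of 1781 and 2076. Total RNA of a tissue cannot tell more cells of a type from more RNA per cell.

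These counts rest on a fit in which total and OL libraries share an estimate of the spread, and most markers varied more in OL RNA, where all but Mfsd2a had fewer counts. A fit of the 12 total RNA libraries alone, chosen after the data had been seen, called 7 markers as risen and 0 as fallen at dpi 2 (beside 27.5% and 23.2% of all genes), 4 and 1 at dpi 10 (23.6% and 21.2%), and 4 and 0 at dpi 42 (20.2% and 16.1%). The markers it added were Tek and Rgs5 at dpi 2, Cldn5, Rgs5 and the fallen Mfsd2a at dpi 10, and Cldn5, Cdh5, Flt1 and Pdgfrb at dpi 42. Where TMM factors came from total RNA libraries alone, the median change of all genes at dpi 2 was 0.14 higher on the log2 scale and 58.6% instead of 44.0% of all called genes were higher; at dpi 10 the share was 59.1% instead of 43.3%, and at dpi 42 64.9% instead of 46.2%. Other groups of cells changed in the same libraries. The summed level of 10 myeloid markers went from 193 to 227 CPM in naive pools to 1364 to 1622 CPM at dpi 2. That of 8 fibroblast markers went from 111 to 126 CPM to 504 to 962 CPM, and that of 6 neuron markers from 7792 to 8237 CPM to 3431 to 4375 CPM. Of these 6 neuron markers, the fit of total RNA alone called 5 as fallen, beside 23.2% of all genes. The part of these groups of cells in the changes of the 10 markers was not tested.

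Cldn5 encodes claudin-5, the main tight junction protein of barrier endothelium (chr16:18776847-18778262, plus strand). In total RNA it was at 18, 21.2 and 17.5 CPM in naive pools 1, 2 and 3 and at 45.5, 66.2 and 73.5 CPM at dpi 2. All dpi 2 pools lay above all naive pools. At dpi 10 it was at 30.8, 42.8 and 47.1 CPM and at dpi 42 at 34.3, 26.1 and 29.9 CPM, so that every injured pool exceeded every naive pool. The log2 change was 1.70 ± 0.46 (SE, adjusted p = 0.0057) at dpi 2, 1.09 ± 0.46 (adjusted p = 0.074) at dpi 10 and 0.67 ± 0.45 (adjusted p = 0.32) at dpi 42. In the fit of total RNA alone all 3 changes passed, with 1.87 ± 0.18, 1.23 ± 0.18 and 0.79 ± 0.18 (adjusted p = 6.4e-08, 1.2e-05 and 0.0016).

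Cdh5 encodes VE-cadherin, the adherens junction protein of endothelial cells (chr8:104101625-104144511, plus strand). Its level was 10.9, 8.06 and 11 CPM in naive total RNA and 34.6, 61.1 and 43.0 CPM at dpi 2. This was the largest rise among the 10 markers at dpi 2, with a log2 change of 2.21 ± 0.35 (adjusted p = 3.3e-05). At dpi 10 the pools held 30.9, 34.0 and 36.0 CPM, a log2 change of 1.75 ± 0.34 (adjusted p = 0.00044). At dpi 42 they held 15.5, 16.9 and 22 CPM, still above every naive pool, with 0.86 ± 0.34 (adjusted p = 0.074); the fit of total RNA alone gave 0.98 ± 0.19 (adjusted p = 0.00058).

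Pecam1 encodes the adhesion molecule CD31 of endothelial cells, which platelets and leukocytes also carry (chr11:106654217-106750628, minus strand). It was tightly grouped in naive total RNA, at 14.5, 13.8 and 14.2 CPM, and reached 38.4, 54.9 and 59.3 CPM at dpi 2. Its log2 change of 1.85 ± 0.63 (adjusted p = 0.025) was lost without any 1 of the naive libraries or without pool 2 or 3 of dpi 2, when the value stayed between 1.72 and 1.86 but the adjusted p lay between 0.067 and 0.074. At dpi 10 the pools had returned to 12.0, 19.6 and 19.2 CPM and at dpi 42 to 14.5, 12.1 and 18.2 CPM, overlapping the naive pools. The rise of Pecam1 was thus measured at dpi 2 alone, with log2 changes of 0.26 ± 0.61 at dpi 10 and 0.08 ± 0.61 at dpi 42 (adjusted p = 0.80 and 0.96).

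The receptors of vascular endothelial growth factor did not follow the junction genes in total RNA. Flt1 (chr5:147561604-147726011, minus strand) encodes VEGFR1, which binds the factor tightly and signals weakly, and was at 47.3, 38.8 and 60.3 CPM in naive, 26.5, 48.9 and 46.7 CPM at dpi 2, 29.8, 38.6 and 43.4 CPM at dpi 10 and 56.0, 68.4 and 79.3 CPM at dpi 42. The first 3 groups overlapped, and only 1 dpi 42 pool lay within the naive range. No change of Flt1 from naive passed the test, with log2 changes of -0.26 ± 0.30, -0.39 ± 0.30 and 0.48 ± 0.30, although the fit of total RNA alone called the last (0.59 ± 0.20, adjusted p = 0.030). Kdr (chr5:75932827-75978458, minus strand) encodes VEGFR2, the main signalling receptor, and was at 10.5, 9.93 and 14.2 CPM in naive, 10.2, 15.3 and 16.3 CPM at dpi 2, 6.41, 11.7 and 9.09 CPM at dpi 10 and 9.74, 6.18 and 7.49 CPM at dpi 42. Its log2 changes were 0.27 ± 0.38, -0.34 ± 0.38 and -0.56 ± 0.38, and neither fit called any of them.

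Tek (chr4:94739289-94874976, plus strand) encodes TIE2, the receptor of angiopoietins, which keeps endothelium quiescent. In total RNA it was at 9.48, 7.19 and 10.9 CPM in naive and 9.13, 16.2 and 20.1 CPM at dpi 2, and pool 1 of dpi 2 lay within the naive range. The log2 change of 0.72 ± 0.69 did not pass (adjusted p = 0.45), whereas the fit of total RNA alone gave 0.89 ± 0.27 (adjusted p = 0.0089). At dpi 10 and dpi 42 Tek was at 6.91 to 11.4 CPM and 5.41 to 7.91 CPM.

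Ly6c1 (chr15:75044018-75048830, minus strand) encodes a surface antigen that is abundant on endothelium of the central nervous system. It was at 15.7, 16.4 and 26.8 CPM in naive total RNA and at 33.8, 48.1 and 54.5 CPM at dpi 2, with every dpi 2 pool above every naive pool and a log2 change of 1.21 ± 0.33 (adjusted p = 0.0056). It was back at 15.5 to 21.9 CPM at dpi 10 and 22.2 to 23.4 CPM at dpi 42. Reads of Ly6c1 may be shared with its near-identical neighbour Ly6c2, a monocyte gene, depending on how the counting split them. Ly6c2 held 0 to 2 counts in naive total RNA libraries and 35 to 67 at dpi 2, against 1207 to 1802 counts of Ly6c1. Ly6a, another relative, held 233 to 660 counts in naive and 1647 to 2838 at dpi 2, and its log2 change was 2.22 ± 0.41 (adjusted p = 0.00019).

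Mfsd2a (chr4:122946850-122961188, minus strand) encodes a lysophospholipid transporter that suppresses vesicle traffic across barrier endothelium. It was the only marker lower in every pool at all 3 times, at 50.8, 48.6 and 44.5 CPM in naive total RNA, 34.5, 40.1 and 37.0 CPM at dpi 2, 37.6, 27.2 and 28.7 CPM at dpi 10 and 42.6, 34.5 and 23.7 CPM at dpi 42. The log2 changes were -0.36 ± 0.40, -0.62 ± 0.40 and -0.51 ± 0.40, and none passed the test in the fit of all libraries (adjusted p = 0.51, 0.26 and 0.40). With library sizes alone as the scaling, 1 pool of dpi 2 and 1 of dpi 42 lay within the naive range. The fit of total RNA alone called the one at dpi 10 (-0.48 ± 0.16, adjusted p = 0.022).

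Of the pericyte genes, Pdgfrb, the receptor for platelet-derived growth factor that pericytes and fibroblasts carry (chr18:61045150-61085061, plus strand), was highest at dpi 10, although the step from dpi 2 to dpi 10 did not pass in the fit of all libraries (0.59 ± 0.47, adjusted p = 0.54). It was at 11.4, 9.32 and 13.2 CPM in naive total RNA, 23.3, 35.9 and 25.7 CPM at dpi 2, 42.9, 44.8 and 40.4 CPM at dpi 10 and 19.4, 23.7 and 28.7 CPM at dpi 42. The log2 change was 1.32 ± 0.48 at dpi 2 (adjusted p = 0.033), 1.92 ± 0.48 at dpi 10 (adjusted p = 0.0039) and 1.08 ± 0.47 at dpi 42 (adjusted p = 0.11), and the fit of total RNA alone called all 3. Without dpi 2 pool 2 the value at dpi 2 was 1.12 and no longer passed (adjusted p = 0.12), and it was likewise lost without any 1 naive library. The 8 fibroblast markers were highest in the same group, at 2194 to 2458 CPM summed at dpi 10, and their part in the Pdgfrb values was not tested.

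Rgs5, a regulator of G protein signalling that is among the most abundant pericyte RNAs (chr1:169655501-169695813, plus strand), changed less. It was at 75.1, 64.0 and 64.8 CPM in naive total RNA, 72.5, 111 and 121 CPM at dpi 2, 89.8, 110 and 102 CPM at dpi 10 and 70.6, 49.3 and 61.6 CPM at dpi 42. Its log2 changes of 0.58 ± 0.32 at dpi 2, 0.57 ± 0.32 at dpi 10 and -0.17 ± 0.32 at dpi 42 did not pass, although the fit of total RNA alone called the dpi 2 and dpi 10 values (0.75 ± 0.16 and 0.71 ± 0.16, adjusted p = 0.00057 and 0.0011).

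**Figure D2:**
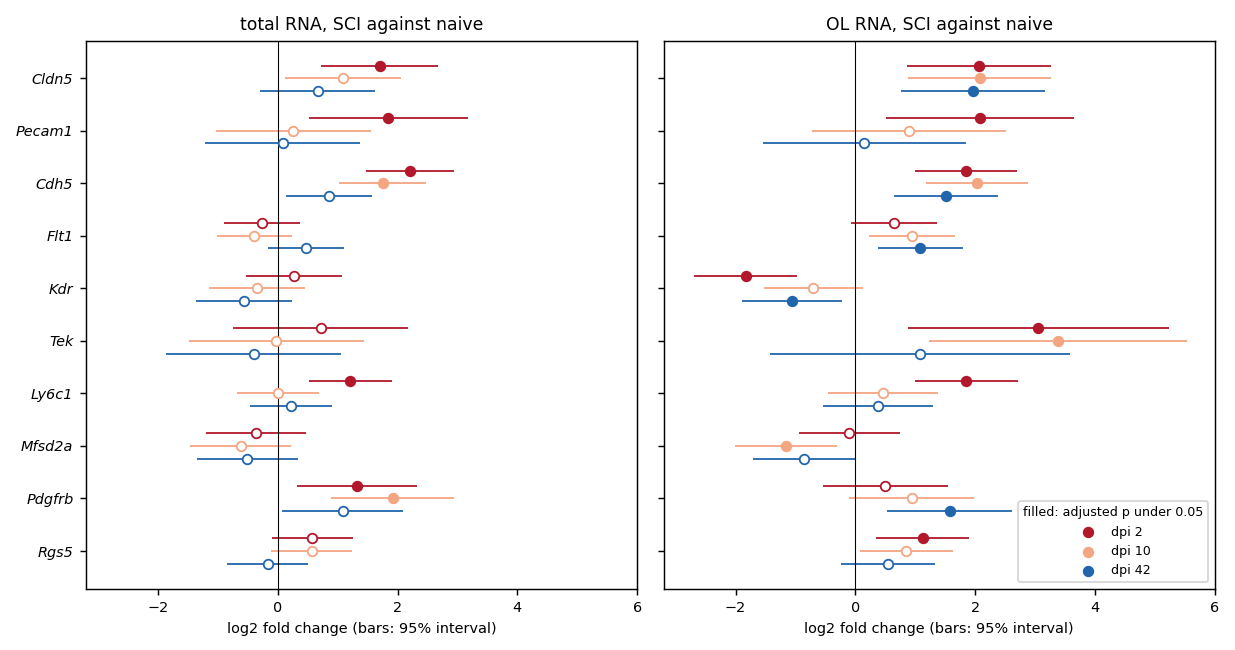
Log2 fold change of each marker from naive at dpi 2, 10 and 42, in total RNA (left) and OL RNA (right), with 95% intervals from the fit of all 24 libraries and filled points where the adjusted p was under 0.05. In total RNA, 5 markers were filled at dpi 2, 2 at dpi 10 and 0 at dpi 42; in OL RNA, Kdr and Mfsd2a lay below 0 at every time.

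Between time points, Ly6c1 was the 1 marker called between dpi 2 and dpi 10 in total RNA, with a log2 change of -1.21 ± 0.33 (adjusted p = 0.024). It was the only fall among the 10, and none rose, beside 4.53% of all genes that fell and 3.31% that rose. Without any 1 library of dpi 10, or without pool 2 or 3 of dpi 2, this call was lost (adjusted p of 0.063 to 0.13). The fit of total RNA alone called 4 falls, Pecam1 (-1.61 ± 0.19), Ly6c1 (-1.23 ± 0.20), Tek (-0.77 ± 0.26) and Cldn5 (-0.64 ± 0.17), and 1 rise, Pdgfrb (0.56 ± 0.17), beside 11.2% and 9.97% of all genes. From dpi 10 to dpi 42 no marker was called with all libraries, beside 0.0583% of all genes that rose and 0.204% that fell. DESeq2's Wald test also called 0. An unadjusted p under 0.05 was found for 3 markers, but the share of all genes at that threshold was not counted. That count can therefore not be set against the shares above. Total RNA alone gave 1 rise, Flt1 (0.84 ± 0.21, adjusted p = 0.022), and 3 falls, Cdh5 (-0.92 ± 0.19), Pdgfrb (-0.86 ± 0.17) and Rgs5 (-0.76 ± 0.16), beside 2.57% and 3.79% of all genes. In the fit of total RNA alone, chosen after the data had been seen, Pecam1, Ly6c1, Tek and Cldn5 had thus declined between dpi 2 and dpi 10. Cdh5 and both pericyte genes had declined in it between dpi 10 and dpi 42. With all libraries, only the fall of Ly6c1 was called.

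The markers were also set against the summed level of 20 further endothelial identity genes, which was 163 to 203 CPM in naive total RNA, 341 to 534 CPM at dpi 2, 262 to 291 CPM at dpi 10 and 226 to 263 CPM at dpi 42. Relative to that sum, the log2 difference between dpi 2 and naive was 0.88 for Cdh5, 0.52 for Pecam1 and 0.37 for Cldn5, about 0 for Pdgfrb (0.0067) and Ly6c1 (-0.079), and negative for Tek (-0.64), Rgs5 (-0.76), Kdr (-1.05), Flt1 (-1.60) and Mfsd2a (-1.67). These are values without a test. They ranged over more than 2 log2 units, and Cdh5 and Mfsd2a lay at the ends.

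Of these 20 identity genes, 8 rose and 0 fell in total RNA at dpi 2, with a median log2 change of 1.54 and all 20 above 0 (16.4% of all genes rose and 20.8% fell), among them the co-receptor Eng (1.56 ± 0.25, adjusted p = 3.4e-05) and the surface sialomucin Cd34 (1.80 ± 0.31, adjusted p = 8.8e-05). The fit of total RNA alone called 19 of 20 as risen, beside 27.5% of all genes that rose in it. At dpi 10 and dpi 42 the fit of all libraries called 3 and 1 of the 20 as risen, with medians of 0.29 and 0.26. These counts were near or below the shares of all genes that rose then, 13.9% and 10.4%. Cd34 stayed at 1.76 ± 0.31 at both times (adjusted p = 0.00015 and 0.00029). Between dpi 2 and dpi 10, Podxl fell by 1.04 ± 0.28 on the log2 scale (adjusted p = 0.024).

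The list of 12 activated or leaky endothelium genes had a median log2 change of 2.6 at dpi 2, with 6 risen and 1 fallen, beside the same shares of all genes. Selp, the P-selectin that captures leukocytes (8.78 ± 1.51, adjusted p = 0.00017), and Icam1, a leukocyte adhesion molecule that many cells induce (2.93 ± 0.57, adjusted p = 0.00034), rose, whereas Apln, the ligand of the apelin receptor, fell by 1.08 ± 0.22 (adjusted p = 0.00054). Selp also rose at dpi 10 (6.26 ± 1.43, adjusted p = 0.0026), and Icam1 was at 3.93 ± 0.59 then and 3.30 ± 0.58 at dpi 42. Selp was at 0 to 0.0317 CPM in naive and 3.25 to 8.35 CPM at dpi 2, so that its fitted fold depends on the near absence of counts in naive libraries and is no bound.

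Single barrier transport and junction genes beyond the markers did not share 1 direction, but the summed level of the barrier transport genes was lower after injury. Of 14 barrier transport genes, 1 rose and 3 fell at dpi 2 (median -0.02), shares near those of all genes (16.4% and 20.8%). At dpi 10 0 rose and 3 fell (median 0.11), beside 13.9% and 18.2% of all genes. At dpi 42 0 rose and 2 fell (median -0.25), beside 10.4% and 12.1%. Their summed level was 1809 to 2033 CPM in naive pools, 1078 to 1227 CPM at dpi 2, 1073 to 1101 CPM at dpi 10 and 1212 to 1434 CPM at dpi 42. Every injured pool thus lay below every naive pool, in a sum that weighs abundant genes most. In naive OL RNA the same sum was 720 to 879 CPM. In naive cord 2 of the 14 genes were OL enriched and 11 depleted, beside 24.4% and 29.1% of all genes. Which genes or cells carried the lower sum in total RNA after injury was not tested. The glucose carrier Slc2a1 rose slightly (0.29 ± 0.10, adjusted p = 0.034), and the transferrin receptor Tfrc (-0.93 ± 0.15) and Spock2 (-1.20 ± 0.27) fell (adjusted p = 3.8e-05 and 0.0013). Tfrc was lower still at dpi 10 and dpi 42 (-1.56 ± 0.15 and -1.51 ± 0.15). Of 8 further tight junction genes, F11r, which leukocytes and platelets also carry, rose at dpi 2 (1.64 ± 0.35, adjusted p = 0.00071), and Cgnl1 fell by 0.84 ± 0.17 (adjusted p = 0.00064). Among 13 ligands and receptors of the VEGF, angiopoietin and PDGF pathways, 4 rose and 1 fell at dpi 2, beside 16.4% and 20.8% of all genes. Pdgfb, the endothelial ligand of the pericyte receptor, rose by 1.14 ± 0.35 on the log2 scale (adjusted p = 0.013), and Vegfa, the ligand of Kdr and Flt1, fell by 1.26 ± 0.38 (adjusted p = 0.012). Vegfa was at 60.2 ± 6.49 CPM in naive and 25.1 ± 2.17 CPM at dpi 2 (SD, n = 3).

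Of 18 mural cell genes, 6 rose and 0 fell at dpi 2, 4 and 0 at dpi 10 and 5 and 0 at dpi 42, with medians of 1.06, 0.72 and 0.81, beside 16.4%, 13.9% and 10.4% of all genes that rose. Those with the smallest p included Tagln and Anpep, which are not particular to pericytes. Tagln, a smooth muscle and myofibroblast protein, rose by 5.34 ± 0.69 at dpi 2 (adjusted p = 3.5e-06), and Anpep, an aminopeptidase of pericytes, fibroblasts and myeloid cells, rose by 3.53 ± 0.47 at dpi 2 and 5.75 ± 0.51 at dpi 10. Vtn, which encodes vitronectin, rose by 2.6 ± 0.35 at dpi 10 and 2.78 ± 0.35 at dpi 42.

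**Figure D3:**
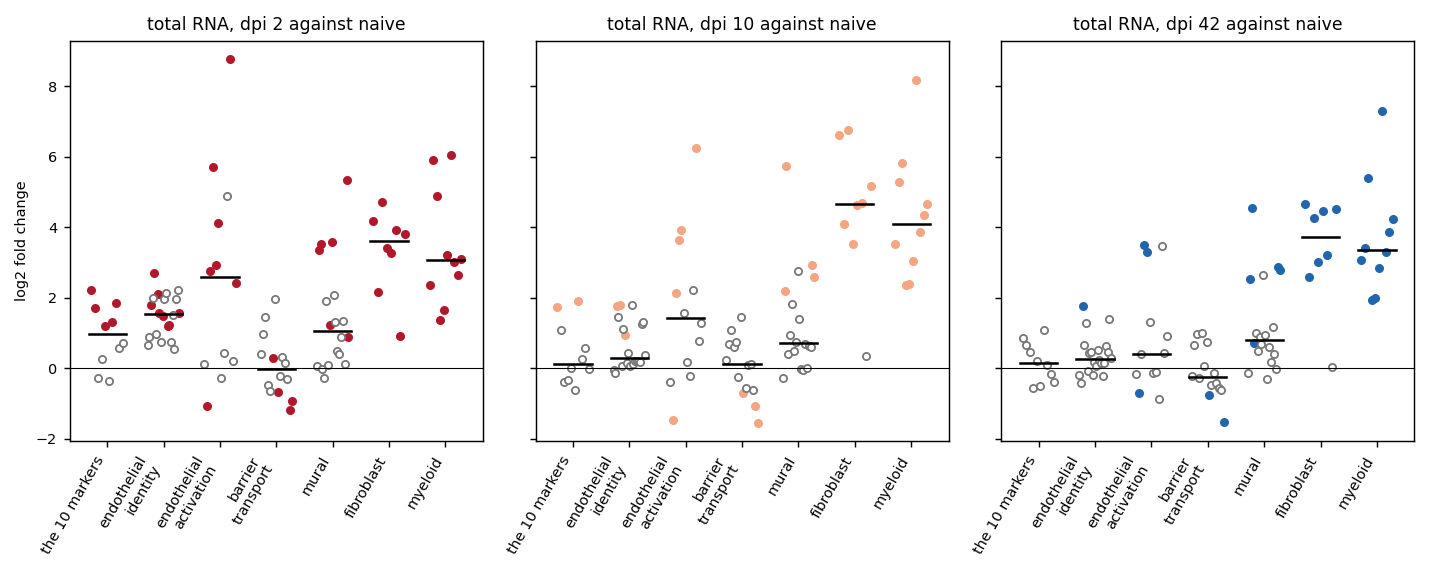
Log2 fold change from naive in total RNA of each gene of 7 lists at dpi 2, 10 and 42, with medians as black lines, filled points where the adjusted p was under 0.05 and open points otherwise. The median of the 10 markers was 0.96, 0.13 and 0.15, that of the endothelial identity genes 1.54, 0.29 and 0.26, and that of the fibroblast markers 3.61, 4.66 and 3.74.

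In OL RNA, 8 of the 10 markers had log2 changes above 0 at every time, and Kdr and Mfsd2a had changes below 0 at every time. All but Mfsd2a were at lower levels than in total RNA of the same pool. At dpi 2, Cldn5, Pecam1, Cdh5, Tek, Ly6c1 and Rgs5 rose and Kdr fell, so that 6 of 10 rose and 1 fell, beside 18.4% and 20% of all genes. At dpi 10 Cldn5, Cdh5 and Tek rose and Mfsd2a fell (3 and 1, beside 9.62% and 8.59%), and at dpi 42 Cldn5, Cdh5, Flt1 and Pdgfrb rose and Kdr fell (4 and 1, beside 16.2% and 16.9%). The median log2 change was 1.48, 0.92 and 0.82, against 0.00 over all genes at each time.

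These calls depended on the shared spread in the other direction. A fit of the 12 OL libraries alone called 2 risen, Cldn5 and Cdh5, and 1 fallen, Kdr, at dpi 2 (beside 15.7% and 14.9% of all genes), and none at dpi 10 (5.55% and 3.86%) or dpi 42 (12.4% for each direction). At an unadjusted p under 0.05 that fit held 4 markers at dpi 10 and 4 at dpi 42, but the share of all genes at that threshold was not counted. DESeq2's Wald test on all libraries called 4 risen and 1 fallen at both times. Over all genes it called 2085 higher and 1598 lower at dpi 10, in place of 1652 and 1474, and 3267 and 2973 at dpi 42, in place of 2787 and 2894. Of the OL changes given next, those of Cldn5, Cdh5 and Kdr at dpi 2 passed in both fits, and no other did.

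Cldn5 held 14 to 27 counts in naive OL libraries and 62 to 115 at dpi 2, which is 1.13, 0.592 and 0.535 CPM in naive pools 1 to 3 and 2.34, 4.66 and 2.45 CPM at dpi 2. Both groups were fully apart, and the log2 change was 2.06 ± 0.57 (adjusted p = 0.0062), or 2.11 ± 0.75 (adjusted p = 0.048) with OL libraries alone. At dpi 10 it was at 1.63, 3.84 and 4.03 CPM (2.07 ± 0.57, adjusted p = 0.013), a call lost without naive pool 2 or 3 or dpi 10 pool 2 or 3 (adjusted p of 0.051 to 0.063). At dpi 42 pools 1 and 2 were at 0.909 and 1.38 CPM and pool 3 at 6.57 CPM, and the log2 change of 1.96 ± 0.57 dropped to 0.53 (adjusted p = 0.39) without pool 3. It was also lost without naive pool 2 (1.78, adjusted p = 0.054).

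Cdh5 was at 0.462, 1.02 and 0.765 CPM in naive OL RNA and at 2.76, 3.44 and 1.91 CPM at dpi 2. No dpi 2 pool reached down to the naive range, and the log2 change was 1.85 ± 0.40 (adjusted p = 0.00097), or 1.89 ± 0.60 (adjusted p = 0.029) with OL libraries alone. At dpi 10 it was at 2.06, 3.50 and 3.65 CPM (2.03 ± 0.40, adjusted p = 0.0012), and at dpi 42 at 3.04, 0.784 and 2.58 CPM (1.51 ± 0.41, adjusted p = 0.0066), where pool 2 lay within the naive range and the call was lost without naive pool 1 (1.21, adjusted p = 0.053) or dpi 42 pool 1 (1.13, adjusted p = 0.066).

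Kdr went the other way. It was at 5.80, 8.84 and 5.58 CPM in naive OL RNA, with 138 to 209 counts, and at 2.08, 1.13 and 2.45 CPM at dpi 2, with 28 to 64 counts. All dpi 2 pools lay below all naive pools, and the log2 change was -1.83 ± 0.40 (adjusted p = 0.0010), or -1.79 ± 0.50 (adjusted p = 0.015) with OL libraries alone. At dpi 10 it was at 2.14, 4.79 and 5.48 CPM and at dpi 42 at 1.64, 4.29 and 3.80 CPM, again below every naive pool. The log2 change was -0.70 ± 0.39 (adjusted p = 0.24) at dpi 10 and -1.06 ± 0.39 (adjusted p = 0.043) at dpi 42, and the latter was lost without naive pool 2 or dpi 42 pool 1. Flt1, by contrast, went from 2.40, 2.58 and 2.45 CPM in naive OL RNA to 2.31, 3.73 and 5.55 CPM at dpi 2, 3.07, 6.05 and 5.18 CPM at dpi 10 and 3.11, 6.12 and 6.53 CPM at dpi 42. The log2 change of Flt1 was 0.64 ± 0.34 at dpi 2 and 0.94 ± 0.34 at dpi 10 (adjusted p = 0.15 and 0.056). Without dpi 10 pool 1, the latter was called (1.18, adjusted p = 0.027). At dpi 42 it was 1.08 ± 0.33 (adjusted p = 0.016), or 1.11 ± 0.44 (adjusted p = 0.083) with OL libraries alone. The call at dpi 42 was lost without naive pool 1 or 2 or dpi 42 pool 2 or 3 (adjusted p of 0.054 to 0.092).

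Tek was nearly absent from naive OL RNA, with 1, 2 and 3 counts, and held 39, 12 and 4 counts at dpi 2, 7, 40 and 23 at dpi 10 and 0, 0 and 14 at dpi 42. Summed over the 3 libraries and scaled, the dpi 2 level was 8.73 times the naive level (95% counting interval 3.76 to 24.8) and the dpi 10 level 11 times (4.79 to 30.9), whereas the ratio at dpi 42 was 2.12 (0.766 to 6.73). These intervals cover counting error only. Neither change held with OL libraries alone (adjusted p = 0.21 and 0.28), and the one at dpi 2 was 1.84 on the log2 scale (adjusted p = 0.22) without pool 1 of dpi 2 and also did not pass without naive pool 1 or 2. The one at dpi 10 was lost without naive pool 1 or 2 or dpi 10 pool 2 or 3 (adjusted p of 0.051 to 0.11).

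The calls of Pecam1 and Rgs5 were lost when certain single pools were left out, and that of Ly6c1 was not. Pecam1 was at 0.294, 0.423 and 1.22 CPM in naive OL RNA and 1.97, 5.51 and 0.918 CPM at dpi 2, and its log2 change of 2.08 ± 0.74 was 1.08 (adjusted p = 0.295) without dpi 2 pool 2 and also missed the threshold without naive pool 1 or 2. Rgs5 was at 2.82, 2.58 and 2.83 CPM in naive and 2.91, 10.5 and 4.51 CPM at dpi 2, and its change of 1.12 ± 0.36 was 0.38 (adjusted p = 0.40) without the same pool and missed the threshold without any 1 naive library. Ly6c1 was at 0.378, 0.508 and 0.880 CPM in naive and 1.21, 3.36 and 1.91 CPM at dpi 2 (1.85 ± 0.41, adjusted p = 0.00098), with groups apart, and it passed without any 1 library but not with OL libraries alone (adjusted p = 0.073). Ly6c2 had 0 counts in all OL libraries of these 2 groups.

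The OL values of Mfsd2a and Pdgfrb depended on single naive pools, above all on pool 3. Mfsd2a was at 31.0, 33.6 and 116 CPM in naive OL RNA, 40.7, 58.7 and 69.1 CPM at dpi 2, 21.7, 31.9 and 27.2 CPM at dpi 10 and 38.2, 46.3 and 15.2 CPM at dpi 42. Its fall at dpi 10 (-1.16 ± 0.40, adjusted p = 0.049) was -0.26 (adjusted p = 0.62) without naive pool 3, and it was also lost without any 1 dpi 10 library. Naive pool 3 was highest and dpi 42 pool 3 lowest of its group both for Mfsd2a and for the summed astrocyte markers, which at dpi 42 were at 12188, 10204 and 1915 CPM in pools 1 to 3. Pdgfrb was at 2.10, 0.846 and 9.41 CPM in naive OL RNA and at 4.23, 8.55 and 4.86 CPM at dpi 2, 5.90, 7.53 and 10.4 CPM at dpi 10 and 14.2, 12.9 and 10.0 CPM at dpi 42. Without naive pool 3 its log2 change was 1.92 at dpi 2 (adjusted p = 0.00030) and 2.42 at dpi 10 (adjusted p = 9.0e-05), against 0.50 ± 0.49 and 0.94 ± 0.49 with it. Without naive pool 2 the value at dpi 2 was -0.043. The rise at dpi 42 (1.58 ± 0.49, adjusted p = 0.017) was lost without naive pool 1 (1.21, adjusted p = 0.10), naive pool 2 (1.04, adjusted p = 0.073) or dpi 42 pool 1 (1.42, adjusted p = 0.060). Without naive pool 3, naive OL libraries with 1.81 and 1.82 CPM of Schwann cell markers were set against injured ones with 211 to 1544 CPM. The part of astrocyte and Schwann cell RNA in these values was not tested.

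OL enrichment, the ratio of OL to total RNA of the same tissue pool, was negative for most markers. In naive cord, 8 of 10 were depleted from OL RNA and 0 enriched, beside 29.1% and 24.4% of all genes. The counts were 9 depleted and 0 enriched at dpi 2 (26.9% and 24.3%), 9 and 0 at dpi 10 (26.4% and 24.7%) and 8 and 0 at dpi 42 (26.8% and 24.4%). The median log2 enrichment was -4.43, -4.16, -3.52 and -3.77, against -0.31, -0.24, -0.24 and -0.24 over all genes.

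As a share of the total RNA level of the same pool, Ly6c1 was at 1.55 to 6.99%, Rgs5 at 3.04 to 9.63%, Cldn5 at 2.65 to 22%, Cdh5 at 4.23 to 19.7% and Flt1 at 4.06 to 15.7% in OL RNA over all 12 pools. Tek ranged from 0 to 16.2% over the pools, and summed over pools it was at 0.886% in naive (6 OL counts), 4.75% at dpi 2, 9.85% at dpi 10 and 2.48% at dpi 42. Pdgfrb stood higher, at 9.08 to 73.3%, and its depletion at dpi 42 did not pass (-0.95 ± 0.39, adjusted p = 0.060). Kdr was at 39.3 to 89.0% in naive cord, where its depletion did not pass (-0.79 ± 0.40, adjusted p = 0.12), and at 7.43 to 20.4% at dpi 2 (-2.90 ± 0.44, adjusted p = 9.8e-05). Mfsd2a was at 57.9 to 261% over the pools and was neither depleted nor enriched in any group, with log2 values of 0.03 ± 0.35 in naive, 0.56 ± 0.34 at dpi 2, -0.21 ± 0.34 at dpi 10 and -0.12 ± 0.34 at dpi 42. The endothelial label of Mfsd2a is thus not matched by depletion from OL RNA, unlike that of the 7 other endothelial markers at dpi 2.

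**Figure D4:**
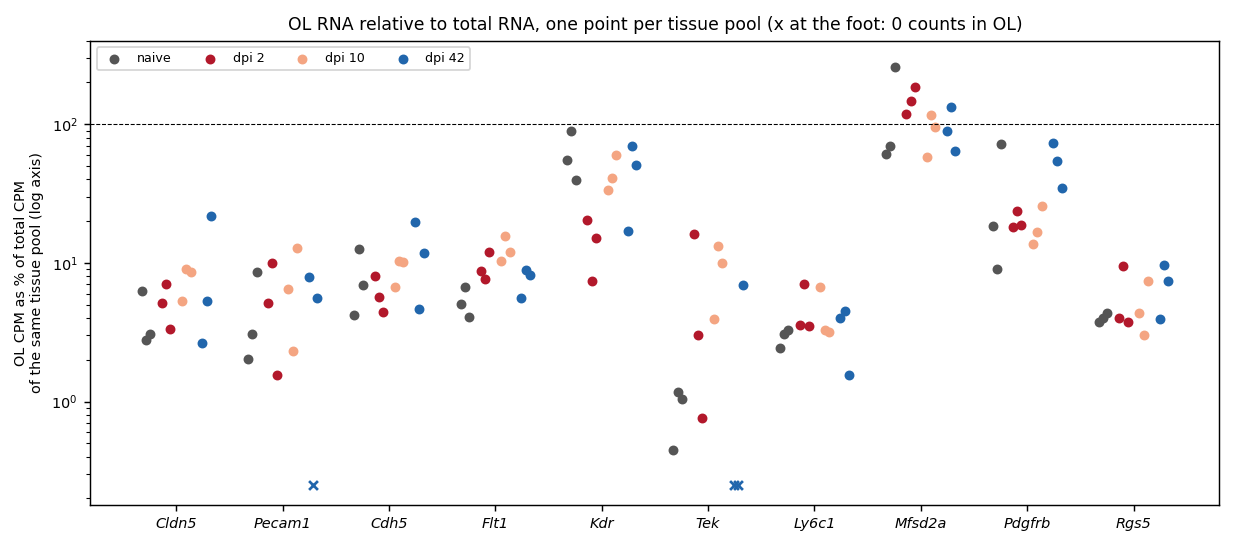
OL RNA level of each marker as a percent of the total RNA level of the same tissue pool, on a log axis, with 1 point per pool, coloured by group, a dashed line at equal levels and crosses where OL RNA held 0 counts. Mfsd2a lay around equal levels (57.9 to 261%), Kdr dropped from 39.3 to 89.0% in naive to 7.43 to 20.4% at dpi 2, and most other markers lay below 25%.

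Differential OL enrichment, the change of that ratio from naive, separated few markers. At dpi 2 only Kdr of the 10 was called, with -2.12 ± 0.58 on the log2 scale (adjusted p = 0.029), so that 1 fell and 0 rose, beside 5.81% and 7.50% of all genes. Kdr had fallen in OL RNA (-1.83) and not in total RNA (0.27). The call was lost without naive pool 1 (-2.15, adjusted p = 0.077), naive pool 2 (-1.81, adjusted p = 0.13) or dpi 2 pool 2 (-1.72, adjusted p = 0.10). At dpi 10 only Flt1 was called, with 1.28 ± 0.27 (adjusted p = 0.014; 1 rose and 0 fell, beside 4.49% and 3.14%), and it was lost without naive pool 3 (1.11, adjusted p = 0.052) or dpi 10 pool 2 (1.11, adjusted p = 0.072). Without the pool as a block, Flt1 was not called at dpi 10. At dpi 42 none was called, nor was any at an unadjusted p under 0.05 or by DESeq2's Wald test, beside 4.34% of all genes that rose and 3.51% that fell. Without naive pool 3, however, Mfsd2a at dpi 2 (1.18, adjusted p = 0.039) and Pdgfrb at dpi 42 (1.95, adjusted p = 0.015) were called.

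For the other markers, the values at dpi 2 lay between -0.34 for Cdh5 and 2.07 for Tek, and their 95% intervals included 0 except for Flt1 (0.85, interval 0.22 to 1.48, adjusted p = 0.060). For Cldn5 the interval at dpi 2 was -1.12 to 1.83 and for Ly6c1 -0.43 to 1.63, so that both a rise and a fall remained compatible with these values.

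One gene of the activation list behaved unlike the markers. Plvap, which encodes the diaphragm protein of leaky endothelium, was at 13.2 ± 1.47 CPM in naive total RNA and 17.8 ± 1.78 CPM at dpi 2, and at 0.692 ± 0.397 and 19.7 ± 5.53 CPM in OL RNA of the same groups (SD, n = 3). Its OL change was 4.81 ± 0.32 at dpi 2, 3.77 ± 0.31 at dpi 10 and 4.05 ± 0.32 at dpi 42, whereas the change of its OL enrichment from naive was 4.43 ± 0.40, 4.09 ± 0.40 and 4.25 ± 0.40 (adjusted p = 4.5e-05, 0.00011 and 0.00012). Its total RNA change at dpi 2 did not pass (0.44 ± 0.26, adjusted p = 0.21), although total RNA alone gave 0.61 ± 0.18 (adjusted p = 0.0080). With OL libraries alone, the OL changes also passed (adjusted p = 2.8e-06, 7.5e-05 and 3.4e-05). Other endothelial genes stayed depleted. Of the 20 identity genes, 19 were depleted in naive cord, 18 at dpi 2, 16 at dpi 10 and 17 at dpi 42. The shares of all genes were 29.1, 26.9, 26.4 and 26.8%. Eng was at -4.06 ± 0.28, -4.33 ± 0.27, -3.52 ± 0.26 and -3.14 ± 0.26. Mcam, an adhesion molecule of the activation list, was lower in OL RNA at dpi 2, as was Kdr. It was at 170 ± 14.2 CPM in naive and 29.7 ± 8.38 CPM at dpi 2 in OL RNA, and at 69.6 ± 5.73 and 57.9 ± 5.44 CPM in total RNA (SD, n = 3). It was OL enriched in naive cord (1.29 ± 0.12) and depleted at dpi 2 (-0.99 ± 0.12), and its differential OL enrichment at dpi 2 was -2.28 ± 0.17 (adjusted p = 1.1e-05).

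Across the 12 total RNA libraries, the 8 endothelial markers did not share 1 pattern. The Pearson correlation of each with the mean profile of the other 7 was 0.91 for Ly6c1, 0.89 for Pecam1, 0.88 for Tek, 0.73 for Kdr, 0.66 for Cldn5 and 0.50 for Cdh5, but -0.19 for Flt1 and for Mfsd2a. The genes outside all lists whose profile was nearest to the mean of the 8 were Acadl (r = 0.93), Crem (0.92), Timm13 (0.92), Eif2a (0.91) and Eif5b (0.91). These values describe 12 libraries of 4 groups that differ in the same injury, and they carry no test.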

How the data were processed

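Total RNA and OL RNA of 12 tissue pools (4 conditions, 3 pools of 2 mice each) were available as raw counts per gene for 24 libraries. According to the study's methods and the submitters' processing notes, the authors checked reads with FastQC (0.10.1), aligned them with STAR to mm10 (GRCm38.p6) and made the deposited counts with HTSeq (0.10.0). Whether the counting used strand is not given in the sources used here. Groups follow the labels, and tissue pools follow the column names.

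Genes with at least 10 counts over all libraries (17167 of 21965) were tested with edgeR (4.0.16) in R (4.3.3) by the quasi-likelihood test after TMM scaling, with Benjamini-Hochberg adjustment over all genes tested. Changes from naive and between times came from a model of 8 groups without a block (16 residual degrees of freedom), and OL enrichment and its change came from a model with tissue pool as a block (8 residual degrees of freedom), since both libraries of a pool hold the same tissue. A value printed as ± beside a log2 change is its standard error. The fit of the 12 libraries of one kind of RNA was added after the data had been seen. Positions and exon lengths are those of GENCODE annotation on GRCm38. A count of 0 allows up to 3 counts, or 0.103 to 0.116 CPM in total RNA and 0.0909 to 0.103 CPM in OL RNA, which covers counting error only. Alternatives were other scalings, other filters, DESeq2 (1.42.0), other sets of libraries, the block and leaving out each library or pool. The code was tested on simulated data.

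The 10 markers, the supporting gene lists and the tests were chosen with earlier results of these data known. Of each supporting list, up to 2 rising and 2 falling genes with the smallest p in a comparison were eligible to be named, and Plvap and Mcam were followed across comparisons after their values were seen. Pools are separate tissue samples, so that p-values measure the spread between pools of 2 mice. In OL and total RNA of the same pool, deviations from the group mean correlated at -0.011 to 0.137 over genes, against -0.105 to 0.050 for different pools.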

Additional observations from a re-analysis of the deposited data

Results flagged for a closer look

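Of the 10 markers, 2 had an effect of injury that differed between OL and total RNA at 1 time. The test was that of the interaction in edgeR's quasi-likelihood fit with the tissue pool as a block. At dpi 2 it called 1 marker, beside 7.50% of all genes that rose and 5.81% that fell. At dpi 10 it called 1, beside 4.49% and 3.14%, and at dpi 42 it called 0, beside 4.34% and 3.51%. These counts were near the shares of all genes and do not set the markers apart. For Kdr at dpi 2 the difference was -2.12 ± 0.58 on the log2 scale (adjusted p = 0.029). OL RNA was lower in 3 of 3 dpi 2 pools than in every naive pool, while total RNA of the same groups overlapped. For Flt1 at dpi 10 the difference was 1.28 ± 0.27 (adjusted p = 0.014). OL RNA as a share of total RNA was 10.3, 15.7 and 11.9% in the dpi 10 pools against 5.06, 6.64 and 4.06% in the naive pools, with no overlap. The cause of either difference was not tested, and each call was lost when certain single pools were left out, as given with the results.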

How the results depend on the processing

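The direction and the call of the depletion of the markers from OL RNA were the least dependent on the settings tried, with 8 depleted in naive cord, 9 at dpi 2, 8 to 9 at dpi 10 and 7 to 8 at dpi 42 when single pools were left out. Over all genes 3966 to 4694, 3558 to 4496, 3426 to 3735 and 3841 to 3979 were then depleted, in place of 5001, 4615, 4537 and 4598. The changes depended mostly on which libraries shared the estimate of the spread. For total RNA the fit of the 12 libraries of one kind, that fit with the replicate number as a block, and a fit of only the groups compared called 4, 4 and 5 markers higher and 1, 1 and 1 lower at dpi 10, in place of 2 and 0. Over all genes these fits called 4013, 3962 and 4591 higher then, in place of 2392, and 3597, 3588 and 4286 lower, in place of 3127. At dpi 42 they called 4, 4 and 4 markers higher in place of 0, and the block called 1 lower. Over all genes they called 3433, 3353 and 3309 higher in place of 1781, and 2743, 2783 and 2947 lower in place of 2076. Between dpi 2 and dpi 10 they called 1, 1 and 1 markers higher and 4, 4 and 3 lower in place of 0 and 1. Over all genes they called 1695, 1795 and 1542 higher in place of 568, and 1903, 1916 and 1827 lower in place of 778. Between dpi 10 and dpi 42 they called 1, 1 and 1 markers higher and 3, 3 and 3 lower in place of 0 and 0. The counts over all genes were 437, 520 and 459 higher in place of 10, and 645, 736 and 737 lower in place of 35. For OL RNA the same settings called 2, 0 and 2 markers higher in place of 6 at dpi 2, beside 2489, 2284 and 2128 of all genes in place of 3154. At dpi 42 they called 0, 0 and 0 markers higher in place of 4 and 0, 0 and 0 lower in place of 1. Over all genes they called 1969, 1744 and 1552 higher in place of 2787, and 1971, 1728 and 1669 lower in place of 2894. At dpi 10 the fit of 12 libraries and the block called 0 and 0 markers higher in place of 3, beside 880 and 740 of all genes in place of 1652. All of these settings called 0 markers lower in place of 1 at dpi 10, beside 612, 427 and 1010 of all genes in place of 1474. The replicate block thus also removed the OL calls of Cldn5 and Cdh5 at dpi 2. Naive and injured pools share only a number, so that block does not pair mice.

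Other scalings and tools moved fewer counts. At dpi 42 in total RNA, 1 marker was called higher in place of 0 with library sizes alone, TMM with a total RNA reference, TMM within one kind of RNA and DESeq2's Wald test. Over all genes these called 2184, 2074, 2155 and 2154 higher, in place of 1781. In OL RNA, 0 in place of 1 were called lower with DESeq2 size factors and with library sizes alone at both dpi 10 and dpi 42, and with TMM within one kind of RNA at dpi 10. Over all genes these called 1266, 862 and 1405 lower at dpi 10 in place of 1474. At dpi 42 DESeq2 size factors and library sizes alone called 2709 and 2123 lower in place of 2894. DESeq2's Wald test called 1 marker in place of 0 with higher OL enrichment at dpi 2 than in naive cord, beside 1794 of all genes in place of 1287. The fit with no replicate block called 0 in place of 1 at dpi 10, beside 784 of all genes in place of 771. Leaving out single libraries or pools gave 3 to 5 markers higher in total RNA at dpi 2, beside 2314 to 2659 of all genes in place of 2810. Between dpi 2 and dpi 10 it gave 0 to 1 lower, beside 472 to 673 of all genes in place of 778. In OL RNA it gave 3 to 6 higher at dpi 2, 1 to 4 higher and 0 to 1 lower at dpi 10, and 1 to 4 higher and 0 to 2 lower at dpi 42. Over all genes it called 2452 to 2972 higher at dpi 2 in place of 3154. At dpi 10 it called 1195 to 1787 higher in place of 1652 and 892 to 1590 lower in place of 1474. At dpi 42 it called 1929 to 2778 higher in place of 2787 and 2460 to 3547 lower in place of 2894. For differential OL enrichment it gave 0 to 1 higher and 0 to 1 lower at dpi 2, and 0 to 1 higher at dpi 10 and at dpi 42. Over all genes it called 581 to 1142 higher in place of 1287 and 584 to 1418 lower in place of 998 at dpi 2. It called 264 to 515 higher in place of 771 at dpi 10, and 291 to 745 higher in place of 745 at dpi 42. The Pdgfrb change in OL RNA at dpi 2 turned to -0.043 without naive pool 2. Relative to the summed identity genes, Ly6c1 in total RNA at dpi 2 was at -0.079 and Flt1 in OL RNA at dpi 42 at -0.053. Of 150 marker values, 62 were called under no setting, and 30 of those changed sign under at least 1 alternative.

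Counts over all genes moved with the same settings. The fit of the 12 libraries called 4675 genes higher and 3949 lower in total RNA at dpi 2 in place of 2810 and 3576, 4013 and 3597 in place of 2392 and 3127 at dpi 10, and 3433 and 2743 in place of 1781 and 2076 at dpi 42. Between dpi 2 and dpi 10 it called 1695 and 1903 in place of 568 and 778, and between dpi 10 and dpi 42 it called 437 and 645 in place of 10 and 35, where DESeq2's Wald test called 124 and 157. In OL RNA at dpi 10 it called 880 and 612 in place of 1652 and 1474, and the replicate block called 740 and 427. Library sizes alone changed OL enrichment in naive cord to 2430 enriched and 7287 depleted genes in place of 4187 and 5001. TMM with a total RNA reference changed differential OL enrichment at dpi 2 to 633 higher and 1920 lower in place of 1287 and 998. With library sizes alone, 61.6, 70.8 and 62.3% of the calls in OL RNA at dpi 2, 10 and 42 were higher, in place of 47.9, 52.8 and 49.1%. Depth limited the OL values of Tek, Pecam1 and Ly6c1 most, which rested on 0 to 136 counts per library.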
